A study of Mus musculus with 6 samples.

Results

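The enzymes that write and remove methyl groups on DNA, and the proteins that read them, were followed in mouse skin through 9 genes: the DNA methyltransferase genes Dnmt1, Dnmt3a, Dnmt3b and Dnmt3l, the Tet dioxygenase genes Tet1, Tet2 and Tet3, and the reader genes Uhrf1 and Mbd2. They were taken by the gene name that the array gives each probe, which yielded 16 of the 41115 probes kept and 9 of the 17778 genes tested. All 9 genes and all 16 probes passed the filter on dim probes, and 14 probes exceeded background clearly on every array. RNA came from whole skin of the shaved back of female mice of the inbred strain C57BL/6J, aged 6 to 8 weeks, after daily cream for 7 days. In 3 samples the daily 62.5 mg of cream contained 5% imiquimod, a Tlr7 agonist used to induce psoriasis-like skin inflammation, and in the other 3 it was vehicle cream. Each sample was read on 1 single-colour (Cy3) Agilent mouse array. The title of the series names epigenetic silencing of Sfrp4, and the question addressed here is whether RNA of the methylation machinery differed between imiquimod and vehicle skin. DNA methylation itself was not measured on these arrays.

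The records give the treatment of the arrays in conflicting ways, and every sign below depends on the choice. In 6 of 6 cases a scanner file is named for 1 treatment and filed under a sample of the other. The deposited value table, read by sample title, goes with the file names: each column matched the file named for its treatment and number (Spearman correlation at least 0.9999997 over 24253 probes), against 0.943 to 0.953 for the file under which its sample was filed. Arrays were therefore grouped by the treatment in the file name. Under this grouping all 9 tested genes of an imiquimod response list were higher in the imiquimod arrays, with a median log2 difference of 4.67. Grouped as filed, every difference has the opposite sign and the same p.

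The 75th percentile of the signal was 861 to 935 on the imiquimod arrays and 941 to 1106 on the vehicle arrays. Pearson correlations between arrays over 24253 probes were 0.992 within the imiquimod group, 0.960 to 0.983 within the vehicle group and 0.942 to 0.954 between groups. Vehicle array 3 stood apart from the other vehicle arrays in its hair follicle and replication genes, and values without it are given where it moved a member most. Slide 1 held imiquimod array 1 and all 3 vehicle arrays, and slide 2 held imiquimod arrays 2 and 3. In a fit with slide as a block, every difference therefore equals that of imiquimod array 1 against the 3 vehicle arrays. A fit within slide 1 repeats the same differences and is no separate check on them. The labels number the samples without stating that each came from its own animal, so the spread behind the p-values is that between these samples and may include technical spread. In whole skin, fewer cells of a type and less RNA per cell cannot be told apart. Among markers of other cells, summed signals (in units of the array's 75th percentile) of 7 neutrophil genes were 788 to 905 in imiquimod skin and 4.11 to 44.5 in vehicle skin, and those of 10 hair follicle genes were 4.83 to 6.34 in imiquimod skin and 123 to 1492 in vehicle skin. With probes required to be well above background on every array, 6 neutrophil and 4 hair follicle genes were left. The median log2 difference of the hair follicle list was then -3.88, against -7.87 for all 10, so its size is uncertain. The skin's own markers were present: all 8 keratinocyte genes were tested, and 5 rose and 0 fell, beside 13.1% of all genes higher and 10.5% lower. Among those that rose was Krt14, the keratin of basal epidermis, by 2.25 (SE 0.15, adjusted p = 0.00155). Of the 8 genes, 1 differed below 0, and with slide as a block 2 passed. The part of these cell types in the results below was not tested.

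In mammals, Dnmt3a and Dnmt3b place new methyl groups on cytosines that precede a guanine (CG sites), with Dnmt3l, which lacks catalytic activity of its own, as a cofactor best known from germ cells. Dnmt1 copies the marks onto the new strand after DNA replication, guided by Uhrf1, which binds hemimethylated CG sites. Tet enzymes oxidise 5-methylcytosine and so start its removal, and Mbd2 binds methylated DNA and recruits the NuRD deacetylase complex. In human epidermis, DNMT1 and UHRF1 are known to maintain the proliferating progenitor state.

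The CG sites on which these enzymes act can be seen in the promoters of the 2 genes that passed the test, which are shown for that reason. The sequences are RefSeq windows on GRCm38.p6 that run from upstream of a transcription start to just beyond it, written 5′ to 3′ on the strand of the gene with each CG in capitals. Of the 9 genes, 8 matched the table, all but Mbd2, some with several starts. Dnmt3l has 3 starts in the table, at chr10:78042037-78042336, chr10:78049592-78049891 and chr10:78055085-78055384 (plus strand), and Tet3 has 1 at chr6:83441629-83441928 (minus strand).
Dnmt3l start 1: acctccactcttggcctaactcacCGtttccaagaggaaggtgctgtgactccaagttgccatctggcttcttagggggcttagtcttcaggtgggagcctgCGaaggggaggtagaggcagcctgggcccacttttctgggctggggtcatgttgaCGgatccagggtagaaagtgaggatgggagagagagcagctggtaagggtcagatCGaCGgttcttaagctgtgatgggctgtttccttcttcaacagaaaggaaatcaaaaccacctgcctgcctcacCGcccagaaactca
Dnmt3l start 2: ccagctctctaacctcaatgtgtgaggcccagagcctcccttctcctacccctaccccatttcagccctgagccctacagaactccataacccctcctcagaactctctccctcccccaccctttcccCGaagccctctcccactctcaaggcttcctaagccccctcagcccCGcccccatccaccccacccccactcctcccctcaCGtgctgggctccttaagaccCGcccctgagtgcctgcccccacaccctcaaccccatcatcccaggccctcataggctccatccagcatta
Dnmt3l start 3: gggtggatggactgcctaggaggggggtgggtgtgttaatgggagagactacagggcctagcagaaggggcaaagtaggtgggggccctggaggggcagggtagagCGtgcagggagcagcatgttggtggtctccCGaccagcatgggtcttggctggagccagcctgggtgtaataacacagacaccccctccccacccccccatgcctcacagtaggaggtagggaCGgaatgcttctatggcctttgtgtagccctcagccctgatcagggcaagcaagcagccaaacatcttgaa
Tet3: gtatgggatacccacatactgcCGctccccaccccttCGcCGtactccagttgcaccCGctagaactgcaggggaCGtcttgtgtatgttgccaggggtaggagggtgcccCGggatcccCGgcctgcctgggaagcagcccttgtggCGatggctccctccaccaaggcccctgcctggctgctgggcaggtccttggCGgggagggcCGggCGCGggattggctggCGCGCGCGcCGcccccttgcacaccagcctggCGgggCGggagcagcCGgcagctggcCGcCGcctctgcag
The motif CG, which reads the same on both strands, occurs 6, 4 and 3 times in the Dnmt3l windows and 22 times in the Tet3 window. The median over 32851 promoter windows of the same length was 7, and 43.6%, 31.4%, 23.3% and 76.9% of them held fewer CGs than these 4 windows in the order shown. In the other members the count lay between 2 in 1 of the Dnmt1 windows and 57 in the window of Tet2. These counts describe sequence only, since the methylation of the sites is not part of the data.

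The sequences of 3 of the 60-base probes are also shown, so that a reader can see which stretch of the transcript each of these probes reads. The first is the Dnmt3a probe of highest mean (A_52_P76146), whose bases span 782 bases of the genome at chr12:3906868-3907649 (mm9, plus strand) and so cross a splice junction. The others are 2 of the 3 Tet3 probes, at chr6:83352743-83352802 and chr6:83318731-83318790 (mm9, minus strand). Neither is the probe of highest mean, from which the Tet3 level and call below were taken. The sequences are in lower case throughout, with no part marked.
Dnmt3a A_52_P76146: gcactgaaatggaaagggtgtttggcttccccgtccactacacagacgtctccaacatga
Tet3 A_52_P491273: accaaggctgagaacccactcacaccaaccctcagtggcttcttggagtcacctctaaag
Tet3 A_51_P199339: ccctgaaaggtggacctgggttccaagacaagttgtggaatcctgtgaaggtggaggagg

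Of the 9 genes, Dnmt3l rose and Tet3 fell in imiquimod skin, and the other 7 did not pass the test (limma, adjusted p under 0.05 over all genes). Over all 17778 genes 23.6% passed, 13.1% higher and 10.5% lower in imiquimod, so 2 of 9 is close to the share of all genes. The groups did not overlap in 3 members, Dnmt3l, Dnmt3b and Tet3, against 46.6% of all genes. The median difference of the members was 0.15, beside 0.023 for all genes. Levels below are log2 signals minus the 75th percentile of the array, so that 0 is the level of that percentile, and differences are imiquimod minus vehicle on the same log2 scale.

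**Figure D1:**
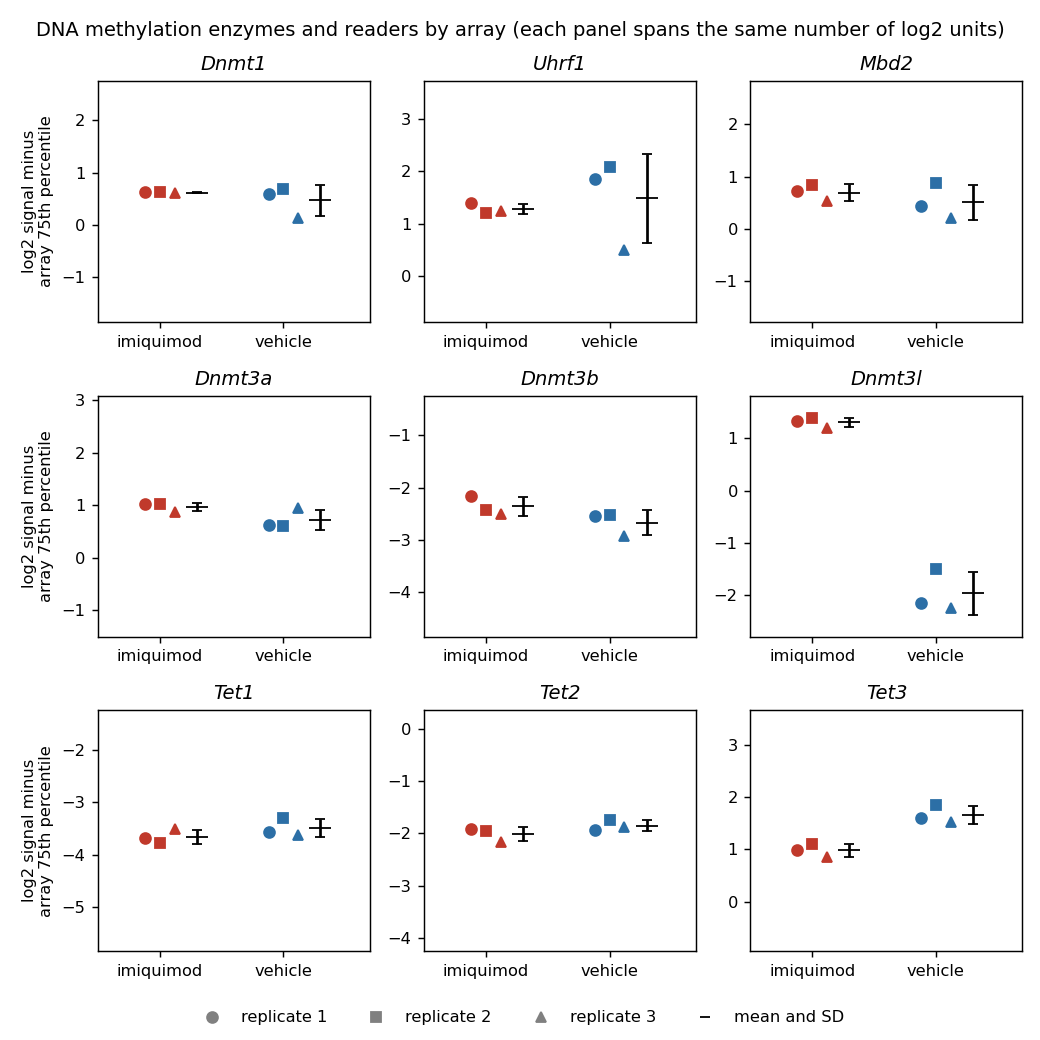
Level of each gene (y axis, log2 signal minus the 75th percentile of the array) in the 3 imiquimod arrays (red, left) and the 3 vehicle arrays (blue, right), with symbols for the replicate number and black bars for mean and SD. Dnmt3l is between 1.20 and 1.38 in imiquimod and between -2.25 and -1.49 in vehicle, Tet3 is lower in all 3 imiquimod arrays, and vehicle array 3 lies below the other vehicle arrays for Uhrf1 and Dnmt1.

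The maintenance pair, Dnmt1 and Uhrf1, did not pass the test. Dnmt1 had levels of 0.63, 0.62 and 0.60 in imiquimod skin and 0.59, 0.68 and 0.13 in vehicle skin. The groups overlapped, with vehicle array 3 the lowest of all 6. The difference was 0.15 (95% interval -0.26 to 0.56, adjusted p = 0.546), and without vehicle array 3 it was -0.020 (adjusted p = 0.906).

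Uhrf1 had levels of 1.39, 1.20 and 1.25 in imiquimod skin and 1.86, 2.08 and 0.51 in vehicle skin. The imiquimod arrays lay close together, below vehicle arrays 1 and 2 and above vehicle array 3. The difference was -0.20 (95% interval -1.22 to 0.82, adjusted p = 0.755). Without vehicle array 3 it was -0.69 (adjusted p = 0.0217) and passed the test as lower in imiquimod, and without vehicle array 2 it was 0.10 (adjusted p = 0.870). Without both of these arrays it was -0.58 (adjusted p = 0.0698). The call thus depended on vehicle array 3 and the sign on vehicle array 2. The other Uhrf1 probe, at chr17:56462554-56462613 beside the first at chr17:56462657-56462716 (mm9), had levels of 0.35, 0.13 and 0.11 in imiquimod and 0.78, 0.99 and -0.55 in vehicle, with vehicle arrays 1 and 2 again above and vehicle array 3 below all imiquimod arrays.

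Beside Uhrf1, the 22 genes of a list of DNA replication and mitosis, all tested, had 0 genes that passed in either direction and 1 with an unadjusted p under 0.05. Their median difference was 0.32, beside 0.023 for all genes, with 21 of 22 differences above 0. With every gene centred on its own mean, the median of the list was 0.24, 0.09 and 0.17 in imiquimod and 0.11, 0.20 and -0.79 in vehicle. Vehicle array 3 was thus the only array of the 6 in which this median was below 0. Without that array the list's median difference was -0.014 and 1 gene passed as higher. Hair follicle genes, centred in the same way, had a median of -3.88, -3.09 and -3.54 in imiquimod and 4.68, 6.05 and 0.91 in vehicle, again with vehicle array 3 below the other vehicle arrays. Of these 10 genes, 4 had a probe well above background on every array, so the size of these medians is uncertain. The part of either list in the values of Uhrf1 was not tested.

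**Figure D2:**
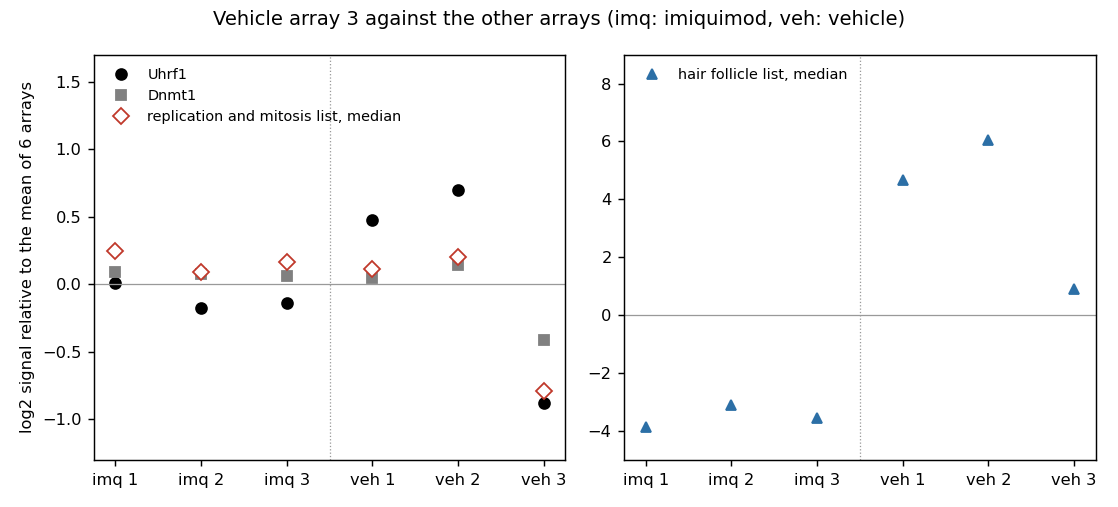
Log2 signal relative to the mean of the 6 arrays (y axis) for Uhrf1, Dnmt1 and the median of 22 replication and mitosis genes (left panel), and for the median of 10 hair follicle genes (right panel), in imiquimod arrays 1 to 3 and vehicle arrays 1 to 3 (x axis). In vehicle array 3 the replication median is -0.79 and Uhrf1 and Dnmt1 are at their lowest, and the hair follicle median is 0.91, against 4.68 and 6.05 in the other vehicle arrays.

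For the de novo enzymes Dnmt3a and Dnmt3b the differences were above 0 and did not pass the test. Dnmt3a, read by its probe of highest mean, had levels of 1.01, 1.01 and 0.87 in imiquimod and 0.61, 0.61 and 0.94 in vehicle. Vehicle array 3 lay among the imiquimod arrays, so the groups overlapped, and the difference was 0.24 (95% interval -0.08 to 0.57, adjusted p = 0.229). Without that array it was 0.36 (95% interval 0.08 to 0.63, adjusted p = 0.0718). Dnmt3b had levels of -2.16, -2.42 and -2.50 in imiquimod and -2.55, -2.52 and -2.93 in vehicle. The groups did not overlap but nearly touched, and the difference was 0.31 (95% interval -0.10 to 0.71, adjusted p = 0.221), or 0.17 without vehicle array 3 (adjusted p = 0.410).

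Dnmt3a has 3 probes, and they did not give a single answer. A_52_P169048, at chr12:3908227-3908286 (mm9), had levels of -3.49, -3.23 and -2.98 in imiquimod and -3.90, -4.17 and -3.79 in vehicle, with no overlap. Its difference of 0.72 (SE 0.18) passed among all probes (adjusted p = 0.0371), where 21.2% of the 27415 probes tested were called, 11.4% higher and 9.72% lower, and 44.6% did not overlap. A_52_P30497, at chr12:3912590-3912649, differed by 0.18 (adjusted p = 0.417). All 3 differences were above 0, and the call of A_52_P169048 was made in 5 of 16 alternative settings.

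Dnmt3l, the cofactor, had levels of 1.33, 1.38 and 1.20 in imiquimod skin and -2.14, -1.49 and -2.25 in vehicle skin. All 6 arrays were well above background, and the lowest imiquimod array (1.20) lay well clear of the highest vehicle array (-1.49). The difference of 3.26 (SE 0.22, 95% interval 2.73 to 3.80, adjusted p = 0.00155) corresponds to 9.60-fold more RNA signal in imiquimod skin (6.64 to 13.9). In either direction, 1.95% of all genes differed at least as much. With slide as a block the difference was 3.29 (adjusted p = 0.0193). Within slide 1, where imiquimod has 1 array, it is the same 3.29 by construction, and it did not pass there. Its single probe lies at chr10:77526112-77526171 (mm9, plus strand), so no second probe bears on the value.

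Since Dnmt3l is best known from germ cells, the levels of germ cell and pluripotency genes are given beside it. Of 7 such genes 2 could be tested, and neither rose: Dppa5a fell by 1.12 (adjusted p = 0.0168) and Piwil2 differed by -0.51 (adjusted p = 0.414). Nanog, Zfp42, Prdm9 and Tex14 were well above background on 0 arrays of either group, and Pou5f1 on 0 imiquimod arrays and 1 vehicle array. The summed signal of the 2 tested genes was 0.256 to 0.372 in imiquimod and 0.609 to 0.660 in vehicle. A separate list of germline genes is given below with its limits. Its 3 tested genes differed above 0, but the 1 that passed, Rhox5, entered the test through the imiquimod arrays alone. That list therefore gives no direction to set beside Dnmt3l.

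The genes beside Dnmt3l on chromosome 10 were read as a description of its surroundings. Within 100 kb of its probe, 5 other genes were tested. Pfkl, which encodes the liver form of phosphofructokinase, had levels of 1.62, 1.17 and 1.20 in imiquimod and -0.63, -0.57 and -0.34 in vehicle and rose by 1.85 (SE 0.16, adjusted p = 0.00235). Aire, which drives the display of tissue antigens in the thymus and has its probe 33.3 kb from that of Dnmt3l, passed as higher (measured difference 2.32, SE 0.52, adjusted p = 0.0272). Its size is uncertain, since 1 of 3 vehicle arrays was well above background: it was 1.81 with the dim vehicle signals raised to the dimmest signal counted as well above background, and 0.86 with normexp background correction. With slide as a block Pfkl still passed (2.13, adjusted p = 0.0142) and Aire did not (2.15, adjusted p = 0.181). Icosl, a costimulatory ligand for T cells with a probe 16.1 kb away on the other side, differed by 0.20 (adjusted p = 0.527), Cfap410 by 0.07 (adjusted p = 0.702) and Gatd3a by -0.18 (adjusted p = 0.451). Without the imiquimod arrays, where it was higher, Aire would not have met the filter on dim probes, so its call supports nothing about position. Pfkl and Aire lay on 1 side of Dnmt3l, with Cfap410, which did not pass, on that side as well. Over all genes 23.6% passed.

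**Figure D3:**
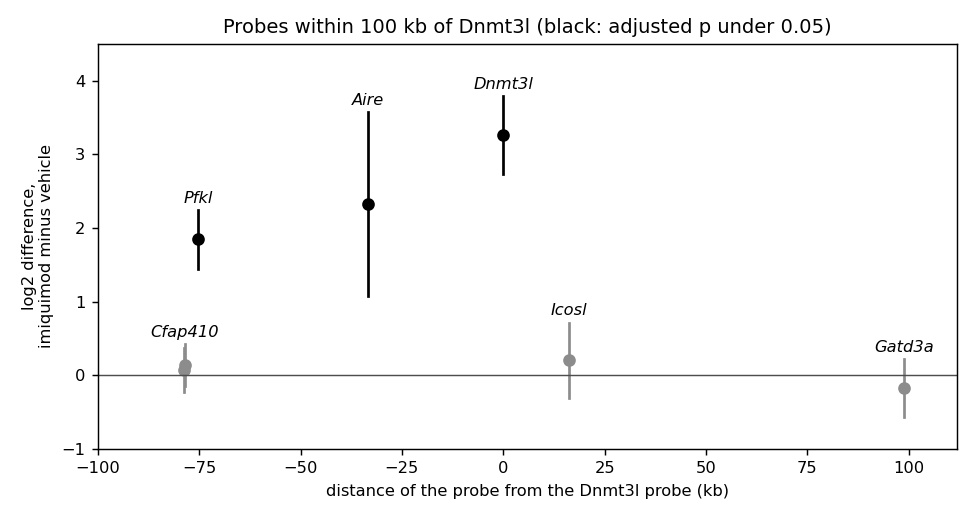
Log2 difference, imiquimod minus vehicle, with its 95% interval (y axis) for each tested probe within 100 kb of the Dnmt3l probe, placed by distance in kb (x axis). Dnmt3l at 3.26, Pfkl at 1.85 and Aire at a measured 2.32, with 2 of 3 vehicle arrays not well above background, passed (black), and the probes of Cfap410, Icosl and Gatd3a did not (grey).

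The genes whose pattern over the 6 arrays came closest to that of Dnmt3l were found by the root mean square difference after centring each gene, among 14894 other genes with a symbol. They were Ada (adenosine deaminase) at 0.106, Rbp2 (a cellular retinol-binding protein) at 0.132 and Arg1 (arginase) at 0.241 log2 units. Ada differed by 3.14 and Rbp2 by 3.18, while Arg1 differed by 3.63. Likeness by this measure is largely likeness in the size of the difference.

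All 3 Tet genes had differences below 0, and of these Tet3 passed the test. Tet1 had levels of -3.68, -3.78 and -3.52 in imiquimod and -3.57, -3.30 and -3.62 in vehicle. The groups overlapped, with a difference of -0.16 (95% interval -0.50 to 0.17, adjusted p = 0.426). Tet2 had levels of -1.92, -1.96 and -2.17 in imiquimod and -1.95, -1.74 and -1.87 in vehicle. These overlapped too, with a difference of -0.16 (95% interval -0.46 to 0.13, adjusted p = 0.366). The other Tet2 probe did not overlap between groups and differed by -0.27 (adjusted p = 0.153).

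Tet3 had levels of 0.99, 1.10 and 0.86 in imiquimod skin and 1.60, 1.86 and 1.52 in vehicle skin. Every imiquimod array lay below every vehicle array. The difference was -0.68 (SE 0.14, 95% interval -1.01 to -0.35, adjusted p = 0.0199), or 0.625 of the vehicle signal (0.497 to 0.787). In either direction 25.4% of all genes differed at least as much, so a difference of this size was common in this comparison. Tet3 no longer passed in a fit that blocks on slide (-0.67, adjusted p = 0.138) or within slide 1, where the difference is the same by construction. It also did not pass without any 1 imiquimod array or without vehicle array 1 (adjusted p between 0.0549 and 0.0731).

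The other Tet3 probes, whose sequences are given with the Dnmt3a probe, also had differences below 0 and did not pass with all arrays and no block. A_52_P491273 had levels of -2.91, -2.92 and -2.29 in imiquimod and -2.38, -2.39 and -2.13 in vehicle and differed by -0.41 (adjusted p = 0.198). A_51_P199339 had levels of -4.74, -4.00 and -3.67 in imiquimod and -3.38, -3.25 and -3.50 in vehicle and differed by -0.76 (adjusted p = 0.101). The lowest of these values was not well above background. The size of this difference moved from -0.26 with normexp background correction to -1.36 with slide as a block, and with that block it passed (adjusted p = 0.0360), while it did not within slide 1 (adjusted p = 0.0953). The representative probe, A_52_P173108, lies at chr6:83312763-83312822 (mm9, minus strand).

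The genes nearest in pattern to Tet3 were Baz2b, a bromodomain protein, at 0.046, Nck2, an adaptor of tyrosine kinase signalling, at 0.055, and Emp2, an epithelial membrane protein, at 0.057 log2 units. They differed by -0.74, -0.64 and -0.75.

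Mbd2, the reader that recruits NuRD, had levels of 0.72, 0.84 and 0.53 in imiquimod and 0.44, 0.88 and 0.21 in vehicle. The groups overlapped, and the difference was 0.19 (95% interval -0.30 to 0.68, adjusted p = 0.525). Without vehicle array 3 it was 0.039 (adjusted p = 0.896), the lowest value with any 1 array left out, and the highest such value was 0.37. Its second probe differed by -0.41 (adjusted p = 0.389) and was well above background on 1 of 3 imiquimod arrays and on all 3 vehicle arrays. The probes of Mbd2 thus differed in sign, and neither passed.

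**Figure D4:**
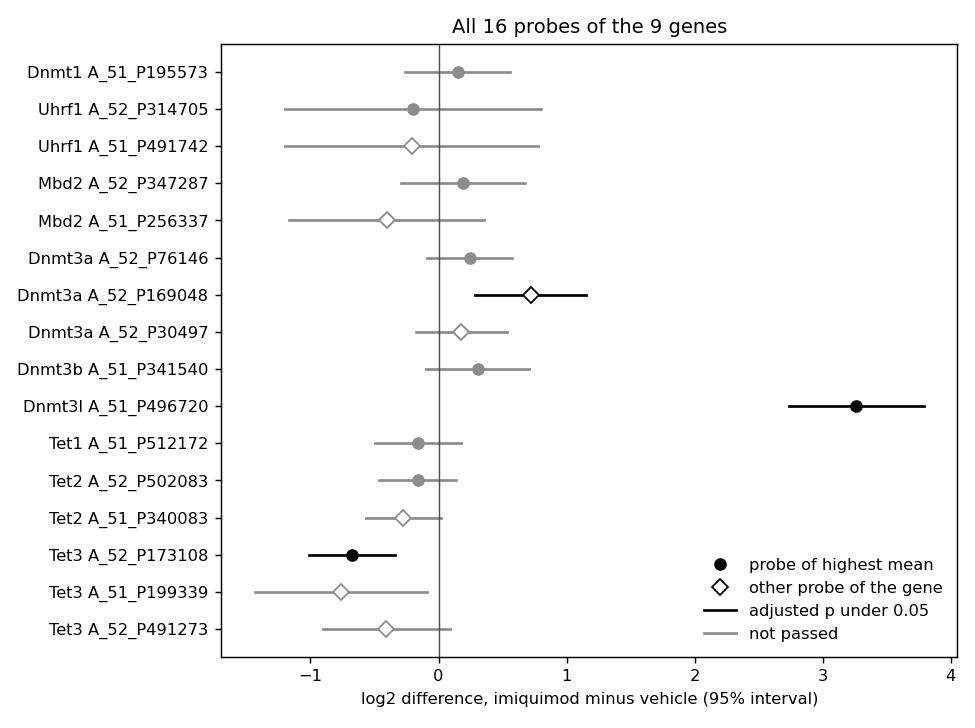
Log2 difference, imiquimod minus vehicle, with its 95% interval (x axis) for all 16 probes of the 9 genes (rows), with filled circles for the probe of highest mean of each gene, open diamonds for its other probes and black for adjusted p under 0.05. The probes of Dnmt3l (3.26), Tet3 (A_52_P173108, -0.68) and Dnmt3a (A_52_P169048, 0.72) passed, and the intervals of Uhrf1 are the widest among the genes' probes of highest mean.

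The members also differed in how evenly the arrays of a group agreed. The SD over vehicle arrays exceeded that over imiquimod arrays in 8 of 9 members, against 69.6% of all genes. Vehicle array 3 was the lowest vehicle array in 7 of 9 members, against 32.7% of all genes. Without it the count of members that passed was 1 higher and 2 lower, with Uhrf1 added.

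The partners of these enzymes were read from lists of 80 genes in all, of which 72 were tested: 3 passed as higher and 7 as lower, with a median difference of -0.032. Over all genes the shares were 13.1% and 10.5%. Without vehicle array 3 the counts were 4 higher and 7 lower, without imiquimod array 1 they were 2 and 1, and with slide as a block they were 1 and 0.

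Among 9 partners of maintenance methylation, 0 passed (1 had an unadjusted p under 0.05), with a median of 0.059. Ehmt2, a histone H3 lysine 9 methyltransferase, differed by 0.33 (adjusted p = 0.0866), and Uhrf2, the paralog of Uhrf1, by 0.29 (adjusted p = 0.155). Among 7 tested partners of de novo methylation 1 fell and 0 rose. That gene was Kdm1b, a histone H3 lysine 4 demethylase needed for maternal imprints in oocytes, with levels of 1.15, 1.09 and 1.08 in imiquimod and 1.66, 1.48 and 1.71 in vehicle and a difference of -0.51 (SE 0.11, adjusted p = 0.0239).

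Of 10 other tested readers of methylated DNA and related proteins, 8 differed below 0, 1 passed as lower and 0 as higher. Their median was -0.28, beside 0.023 for all genes. Zbtb38, a zinc finger protein that binds methylated CG sites, differed by -0.63 (SE 0.12, adjusted p = 0.0170) at its probe of highest mean, but its other tested probe differed by 0.56. Zbtb33 (Kaiso), of the same family, differed by -0.33 (adjusted p = 0.0521), and its other tested probe by 0.02. Of the 12 NuRD subunits 1 fell and 0 rose, with a median of 0.08. Gatad2b differed by -0.38 (SE 0.09, adjusted p = 0.0380) and its paralog Gatad2a by 0.29 (adjusted p = 0.233). Of the 3 tested Gatad2b probes, all below 0, 1 passed.

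On the side of removal, 2 of 7 tested Tet partners fell and 0 rose, beside 10.5% lower and 13.1% higher over all genes. With slide as a block 0 of the 7 passed in either direction. Cxxc5, a CXXC zinc finger protein that binds unmethylated CG sites and interacts with Tet2, had levels of -0.87, -1.05 and -0.84 in imiquimod and 0.46, 0.25 and 0.04 in vehicle. No imiquimod array reached the lowest vehicle array, and the difference was -1.17 (SE 0.15, adjusted p = 0.00527), with -1.14 at its other probe. Of 15 tested genes of base excision and deamination 1 rose and 0 fell, with a median of 0.03. Apobec1, a cytidine deaminase best known for editing RNA, rose by 0.69 (SE 0.17, adjusted p = 0.0332), and Xrcc1, a scaffold of base excision repair, differed by -0.44 (adjusted p = 0.0559).

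Methyl donor supply had the widest spread of these lists, with 2 of 13 tested genes higher and 2 lower. Shmt2, the mitochondrial serine hydroxymethyltransferase, rose by 1.13 (SE 0.14, adjusted p = 0.00518), and Mtr, methionine synthase, by 1.13 (SE 0.16, adjusted p = 0.00719). The other tested Mtr probe differed by 0.47 and did not pass. Mthfd1, a cytosolic folate enzyme, fell by 0.63 (SE 0.11, adjusted p = 0.0122). Of its 2 tested probes, both below 0, 1 passed. Gnmt, which uses up S-adenosylmethionine, had levels of -2.84, -2.80 and -2.40 in imiquimod and 1.40, 2.38 and -1.35 in vehicle. Its difference of -3.49 (SE 0.93, adjusted p = 0.0434) was -4.57 without vehicle array 3 (adjusted p = 0.00309), the array in which hair follicle genes were also low. The call was lost without vehicle array 2 (-2.70, adjusted p = 0.0631), without vehicle array 1 (adjusted p = 0.133), without any 1 imiquimod array (adjusted p between 0.108 and 0.128) and in the fit that blocks on slide (adjusted p = 0.197).

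**Figure D5:**
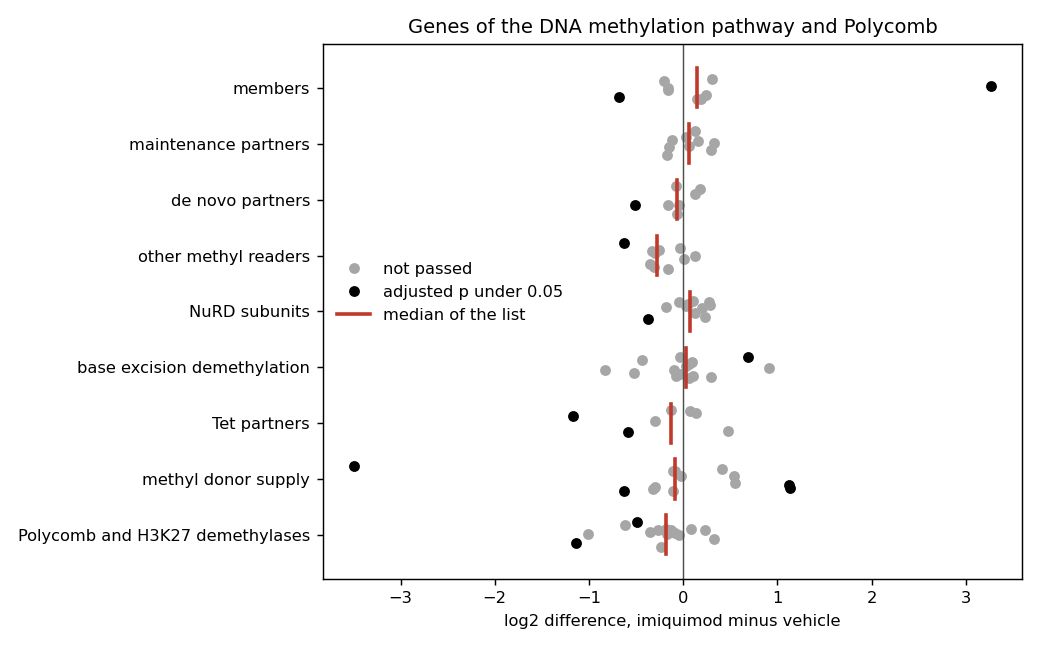
Log2 difference, imiquimod minus vehicle (x axis), of every tested gene in the 9 members, 7 lists of partners and the Polycomb list (rows), black where adjusted p was under 0.05, with a red line at each list's median. Medians lie between -0.28 and 0.15, and the far points are Dnmt3l at 3.26 and Gnmt at -3.49.

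Polycomb proteins, which silence genes through histone H3 lysine 27 methylation, are another route of silencing. Of 15 tested Polycomb genes and H3K27 demethylases 2 fell and 0 rose, with a median of -0.18, beside 10.5% lower and 13.1% higher over all genes. Among them was Cbx7, a chromobox subunit, at -1.14 (SE 0.27, adjusted p = 0.0302).

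Genes whose RNA is known to depend on DNA methylation were read beside the enzymes. Of 18 germline genes silenced by promoter methylation in somatic cells, 15 were too dim to test, and the 3 that were tested cannot stand for the list. Rhox5, a reproductive homeobox gene, was well above background on all 3 imiquimod arrays and 0 vehicle arrays. It entered the test through the imiquimod arrays alone and so had to differ, and its call supports nothing about the list. The measured difference was 2.64 (adjusted p = 0.0165), and its size is uncertain. It was 3.16-fold with dim vehicle signals raised to the dimmest signal that counted on that array as well above background. With normexp background correction the measured difference was 0.67, which is smaller. In the fit that blocks on slide Rhox5 did not pass (adjusted p = 0.0830). Tdrd1 differed by 1.43 (adjusted p = 0.266) and Brdt by 0.21 (adjusted p = 0.302). With probes required to be well above background on every array, 1 gene of the list was left, at 0.21.

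Of 23 imprinted genes 19 were tested, 5 rose and 1 fell, with a median of 0.19. Over all genes 13.1% passed as higher and 10.5% as lower. Mest rose by 2.60 (SE 0.29, adjusted p = 0.00408) and Nnat, an imprinted membrane protein gene, fell by 3.33 (SE 0.45, adjusted p = 0.00673). Slc22a18, Dlk1, Impact and Meg3 rose by between 0.47 and 1.64. Dlk1 and Meg3 are expressed from opposite parental alleles of 1 imprinted cluster, and both were higher in imiquimod. The Meg3 call was lost with quantile normalization (adjusted p = 0.0608), while all 5 of its tested probes differed above 0 and 4 passed.

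Sfrp4, the secreted Wnt antagonist named in the series title, fell by 2.20 (SE 0.53, adjusted p = 0.0336). Its levels were -0.93, -1.35 and -0.01 in imiquimod and 1.24, 0.68 and 2.40 in vehicle. The call was not made with slide as a block (-2.37, adjusted p = 0.16). It was also lost without imiquimod array 1 (adjusted p = 0.109), imiquimod array 2 (adjusted p = 0.103) or vehicle array 1 (adjusted p = 0.0921). Keeping every dim probe in the test narrowly lost it too (adjusted p = 0.0551). It held without imiquimod array 3 (adjusted p = 0.0491), vehicle array 2 (adjusted p = 0.0255) or vehicle array 3 (adjusted p = 0.0431). Of the other members of the Sfrp4 family, Sfrp1 fell by 1.91 (adjusted p = 0.00494) and Sfrp2 rose by 2.47 (adjusted p = 0.00851). Frzb (-0.38) and Sfrp5 (-0.27) did not pass. When slide was blocked, Sfrp1 narrowly lost its call (-1.94, adjusted p = 0.0514) and Sfrp2 narrowly kept it (2.86, adjusted p = 0.0475).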

How the data were processed

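Total RNA of whole back skin was hybridised to 6 single-colour Agilent arrays of 45018 spots, 3 per group. Spot intensity in the deposited scanner files is linear and, per the file headers, already background-subtracted in the processed signal used here. The headers name Agilent Feature Extraction 10.7.3.1 and the submitters' processing notes 9.1. Values in the deposited value table are log2, with column medians of 7.05, and their normalization and centring are not given in the sources used here.

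Control spots and 322 spots marked as outliers were left out, and a probe's spots were averaged. From the log2 of this signal the array's own 75th percentile was subtracted. A probe entered the tests if well above background on at least 3 of 6 arrays (27415 probes), and a gene was read by its tested probe of highest mean (17778 genes, 6595 with several tested probes). Between 61.2% and 67.4% of probes were well above background per array, and precision is limited by how few arrays there are. Probes took current gene names through RefSeq accessions (27660), symbols (5595) or synonyms (470). Positions of probes are those of the files (mm9).

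The comparison used lmFit and eBayes of limma 3.58.1 (R 4.3.3), two-sided and without covariates, and Benjamini-Hochberg adjustment at 0.05 over all genes or all probes. The steps were tested on simulated data with independent noise and no effect of slide or of a single array. That test therefore does not bear on the influence of slide or vehicle array 3. The labels number the samples without saying whether they are paired by replicate number, and the fit treats them as unpaired. Same-numbered arrays deviated from their group means with correlations of -0.09, 0.07 and 0.09 across genes. With so few arrays these values cannot settle whether the samples were paired. Members and gene lists were chosen with earlier results of these data known. Genes named are the 9 members and their probes, of each partner and Polycomb list the 2 genes of smallest p and those that passed where 3 or fewer did in a direction, of the other lists 1 to 3 genes of smallest p, the genes within 100 kb of Dnmt3l, the 3 closest in pattern to each member that passed, and the Sfrp genes (Dlk1, Impact and Meg3 of the imprinted list and the dim germ cell genes were named after their values were seen). Some genes that the rule names are not reported here. The alternatives tried were normexp background correction (offset 50), quantile normalization, other filters on dim probes, averaging the probes of a gene, a variance trend, slide and replicate as blocks, slide 1 alone, each array left out, the value table, the grouping as filed, and leaving out both arrays of quality status evaluate (vehicle 2 and 3, with negative control signals of 40.9 and 45.2, against 31.7 to 37.6 on the others).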

Additional observations from a re-analysis of the deposited data

How the results depend on the processing

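Among 17 alternatives that kept the grouping by file name, the difference of Dnmt3l ranged from 2.93 to 3.50 and passed in 16, and that of Tet3 from -0.74 to -0.58 and passed in 10. Slide as a block gave 541 genes higher and 518 lower, 0 members lower, partner counts of 1 and 0, and Tet3 at -0.67. Within slide 1, 7 genes were higher and 1 lower, 0 members and 0 partners passed in either direction, and Dnmt3l was at 3.29 and Tet3 at -0.67; imiquimod has 1 array there. The fit with the replicate number as a block gave 1164 genes higher and 1043 lower and 1 partner lower, and Dnmt3l (adjusted p = 0.0144) and Tet3 (adjusted p = 0.0425) kept their calls. Not every array correlated best with its own number. With no filter on dim probes 4 partners were lower, over 27310 genes. Without both arrays of status evaluate 0 members and 4 partners were lower, with Tet3 at -0.61. With each array left out in turn, 944 to 2514 genes were higher and 745 to 2215 lower, 0 to 2 members and 1 to 8 partners were lower and 2 to 4 partners higher. Tet3 then ranged from -0.74 to -0.58, Uhrf1 from -0.69 to 0.10 (its other probe from -0.69 to 0.083), and Dnmt1 from -0.020 to 0.26. The mean of its probes turned Mbd2 to -0.11. Grouped as filed, 1866 genes were higher and 2330 lower and 7 partners were higher and 3 lower, and every sign turned: Dnmt1 -0.15, Dnmt3a -0.24, Dnmt3b -0.31, Dnmt3l -3.26, Uhrf1 0.20, Tet1 0.16, Tet2 0.16, Tet3 0.68 and Mbd2 -0.19, and for the other probes -0.72 and -0.18 (Dnmt3a), 0.41 (Mbd2), 0.27 (Tet2), 0.76 and 0.41 (Tet3) and 0.21 (Uhrf1). The causes of the lost calls were not tested. Of 24 further named genes that passed, all kept their direction in the 17 alternatives where they were tested, but 4 passed with slide as a block, 0 within slide 1 and 11 with the replicate block.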
